A study of Mus musculus with 15 samples.

Results

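The genes described here build and serve the primary cilium, the single antenna-like projection on most kidney epithelial cells, or encode the proteins lost in inherited cystic kidney disease. They are the rows of the deposited table whose symbols belong to the series Ift, Bbs and Nphp followed by a number, together with Tctn1, Tctn2, Tctn3, Mks1, Pkd1, Pkd2 and Pkhd1. The rule found 33 of 47069 rows, of which 32 are the genes named and 1, Ift88os, is an antisense transcript at the Ift88 locus that the open-ended pattern also caught. The study sequenced 12 libraries, each from a single microdissected mouse proximal tubule labelled PTS2 (by its usual reading, the second segment of the proximal tubule), in sets m1, m2 and m3 with replicates 1 to 4. It also sequenced 3 libraries from whole kidney. All mice were male C57BL/6 animals aged 2 months, and the labels name no genetic change or treatment in any group. The labels do not say what a set stands for or whether replicates came from separate animals, so p-values measure only the spread between these libraries, which may be technical.

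The primary cilium holds no ribosomes, so its proteins must be carried in from the cell body. Intraflagellar transport (IFT) does this along the axoneme. Complex IFT-B is linked to kinesin-driven movement towards the tip and complex IFT-A to the dynein-driven return to the base. The BBSome is an adaptor that moves membrane proteins with them. At the base a gate called the transition zone, built from nephronophthisis (NPHP) and Meckel syndrome (MKS) modules, decides what may enter. Polycystin-1 and polycystin-2, encoded by Pkd1 and Pkd2, act together in the ciliary membrane, and mutations in their human counterparts cause dominant polycystic kidney disease. Fibrocystin, encoded by Pkhd1, is the protein of the recessive form. Proximal tubule cells carry a primary cilium and no motile cilia.

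Values are TPM (transcript abundances scaled to a fixed sum per library), which are corrected for transcript length. Levels of different genes can thus be set side by side, but only roughly. The balance of long and short transcripts still differed between libraries, as given below. The read depth behind the values is unknown. All 5 general proximal markers were detected in every tubule library. Their summed TPM was 134% of the whole kidney mean, a rise carried by Slc27a2 (9166 ± 1358 against 4620 ± 443 TPM), while Lrp2 and Cubn were close to whole kidney and Slc34a1 (3351 ± 985 against 4544 ± 92.9) and Slc4a4 (95.1 ± 30.6 against 224 ± 11.4) were below it. In sum, the 3 segment S1 markers (Slc5a2, Slc5a12 and Gatm) were at 0.216% of whole kidney. The S2 markers Slc22a6 and Slc22a8 were at 86.2%, and the 3 S3 markers (Slc7a13, Slc22a7 and Cyp7b1) at 265%. The S2 markers went opposite ways, with Slc22a6 at 585 ± 228 against 486 ± 44.1 TPM and Slc22a8 at 68.0 ± 42.2 against 272 ± 11.3 TPM. With the S3 sum above whole kidney and the S2 sum below it, these markers do not bear out the S2 reading. PTS2 is therefore used here as a label only. Summed markers of principal cells (2.85%), podocytes (1.81%), intercalated cells (0.145%) and distal convoluted tubule (0.167%) were near 0% of whole kidney. Those of endothelium stood at 14.2%, those of lymphocytes at 8.18%, those of fibroblasts and mesangium at 1.99% and those of macrophages at 55.03%. The 2 parietal epithelium markers stood at 83.9% in sum. That sum was carried by Cldn1 (8.35 ± 2.14 against 8.43 ± 1.65 TPM), while Ncam1 was at 0.0208 ± 0.0315 against 1.55 ± 0.900 TPM. Among the principal cell markers, Aqp3 was not near 0, at 18.4 ± 9.70 against 140 ± 17.0 TPM, while Aqp2 was at 1.28 ± 1.84 against 464 ± 126 TPM. In the macrophage list Csf1r alone was above its whole kidney level, at 39.1 ± 14.8 against 21.1 ± 2.65 TPM, while C1qb was at 3.93 ± 1.29 against 37.4 ± 7.36 TPM. Set m3 replicate 3 held thick ascending limb markers at 1441 TPM in sum, 56.1% of whole kidney, against at most 55.8 TPM in every other tubule library. Leaving that library out changed no call for any gene found by the naming rule. Among other genes, the difference of Glis2 among sets, described below, was then lost (adjusted p = 0.0628, F test in limma). In whole kidney a lower level can mean fewer cells that use a gene or less RNA per cell, and these cannot be told apart in bulk samples.

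A script searched the promoters of these genes (RefSeq, build GRCm38.p6, 250 bases before to 50 after each start site) because genes of the cilium are known to carry X-boxes, the imperfect palindromes to which RFX transcription factors bind. A promoter was in the table for 27 of the 33 genes, with none for Ift80, Ift81, Ift122 and Ift88os among others. The letters GTNNCC followed after 2 further bases by GGNNAC, which read the same on both strands and in which N is any base, were found in 9 of 27 genes (33.3%). Among all 27025 genes in the table the same letters were in 583 (2.16%), and among 65 other cilium and cystic genes in 7 (10.8%). This pattern was chosen from 11 after the counts of all had been seen, so the share is a description with no test. The matches are shown with their flanks in the order of the genes, 5′ to 3′ on each gene's own strand, with the matching letters in capitals.
Bbs1 (chr19:4906605-4906634, minus strand): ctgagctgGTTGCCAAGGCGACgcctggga
Bbs4 (chr9:59353464-59353493, minus strand): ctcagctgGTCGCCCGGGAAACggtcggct
Bbs7 (chr3:36613489-36613518, minus strand): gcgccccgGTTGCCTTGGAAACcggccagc
Ift57 (chr16:49699199-49699228, plus strand): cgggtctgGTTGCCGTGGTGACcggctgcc
Mks1 (chr11:87853183-87853212, plus strand): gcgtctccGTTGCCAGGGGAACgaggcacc
Nphp4 (chr4:152477903-152477932, plus strand): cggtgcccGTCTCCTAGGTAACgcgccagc
Tctn1 (chr5:122264411-122264432, minus strand): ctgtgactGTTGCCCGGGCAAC
Tctn2 (chr5:124598679-124598708, plus strand): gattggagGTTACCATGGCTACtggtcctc

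The stricter letters GTTGCC followed after 2 further bases by GGNAAC, also searched on both strands and lying within the first pattern, were in 3 of the 27 genes (Bbs7, Mks1 and Tctn1) and in 0.355% of all genes. The 6 letters GTTGCC, searched on both strands and overlapping the stricter pattern, were in 13 of 27 (48.1%) against 14.1% of all genes. Ift22, which encodes a small GTPase-like subunit of IFT-B, was the member with 2 matches, and the 250 bases before its start site (chr5:136907900-136908149, plus strand) show how close together they lie.
Ift22: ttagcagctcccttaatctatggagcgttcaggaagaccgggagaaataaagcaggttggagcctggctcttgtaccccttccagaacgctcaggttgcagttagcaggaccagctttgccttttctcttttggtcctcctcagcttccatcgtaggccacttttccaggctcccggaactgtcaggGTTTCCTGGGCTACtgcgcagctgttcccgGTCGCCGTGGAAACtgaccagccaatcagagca

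The first Ift22 match began at position -63 and the second at position -33, counted from the start site. The genes with a match ranged in mean level from Nphp4 at 0.152 TPM to Ift22 at 48.2 TPM in PTS2, and those without one reached 61.0 TPM (Ift20). Of the 8 tested genes with a match, 2 (Bbs1 and Bbs4) were lower in PTS2 than in whole kidney, and of the 18 tested without one, 4 were. Among all genes tested 41.5% were lower, and these small counts were not compared by a test. Each of the Bbs1 and Bbs4 calls was lost with another scaling, as given below.

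**Figure D1:**
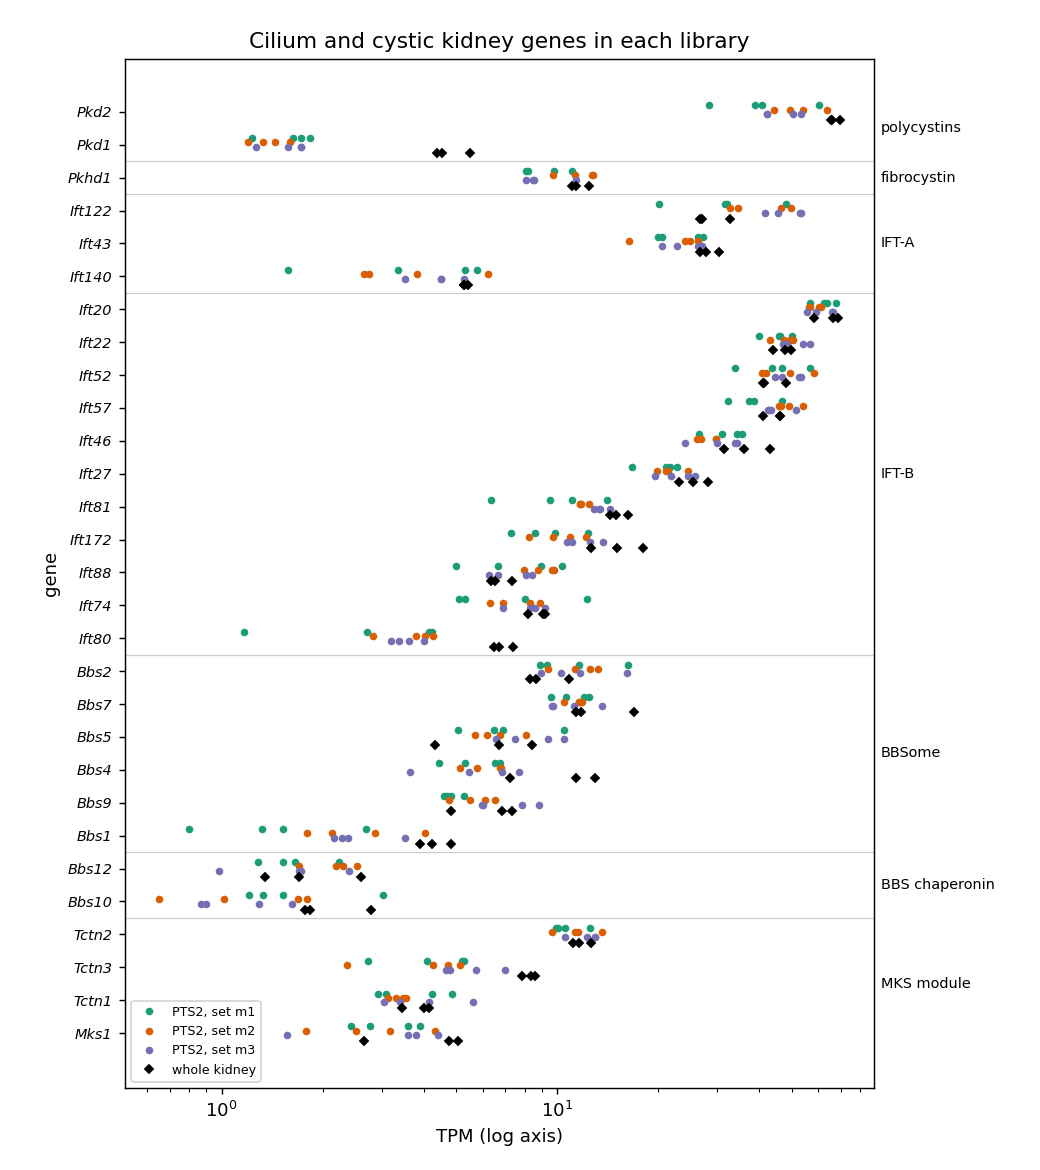
TPM on a log axis for the tested genes reported by name (rows, grouped by role); coloured points are the 12 PTS2 libraries by set and black points the 3 whole kidney libraries. The upper end holds several IFT-B genes with Pkd2 and Ift122, Ift20 lying between 55.6 and 67.8 TPM in PTS2, and the black points of Pkd1 stand apart from all 12 coloured ones.

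In PTS2 tubules the tested genes spanned a 43.3-fold range of mean level, from Bbs10 at 1.41 ± 0.622 TPM (SD, n = 12) to Ift20 at 61.0 ± 4.27 TPM. Testing required an average of 1 TPM or more across the 15 libraries, and 31 of the 33 rows passed. Nphp4, a scaffold of the transition zone, fell under it with 0.152 ± 0.119 TPM in tubules and 0.60, 0.73 and 0.81 TPM in whole kidney. With no filter on low values its difference of -0.58 on the log2 scale passed (adjusted p = 0.00011, limma). Ift88os fell under it too, listed at 0 to 0.21 TPM. Of the tested genes 18 of 31 had a PTS2 mean between 80 and 125% of the whole kidney mean. No matching count over all genes is given, so this number is a description only.

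For the comparison of PTS2 with whole kidney, limma was fitted to log2(TPM + 1) of all 12039 genes that passed the filter, with libraries of a set allowed to correlate. A fold change on this scale understates the change of genes near 1 TPM. Of the 31 tested genes, 7 were called lower in PTS2, with a Benjamini-Hochberg adjusted p below 0.05 (22.6%), 0 were higher and 24 were not called. At an unadjusted p under 0.05 the count was 8. Over all genes tested, 51.2% were called, 41.5% lower and 9.68% higher, so the share of these genes called lower was below that of all genes. Their median log2 difference was -0.22, beside -0.27 for all genes tested. With median-of-ratios scaling, which moved the median of all genes to 0.00, 4 of these genes were lower and 5 higher (Ift122, Ift52, Ift22, Ift88 and Bbs2), beside 23.8% and 23.5% of all genes. The polycystins, Ift80, Bbs4, Tctn3, Bbs1 and Ift172 made up the 7, and the role groups differed in how many of their members they included.

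**Figure D2:**
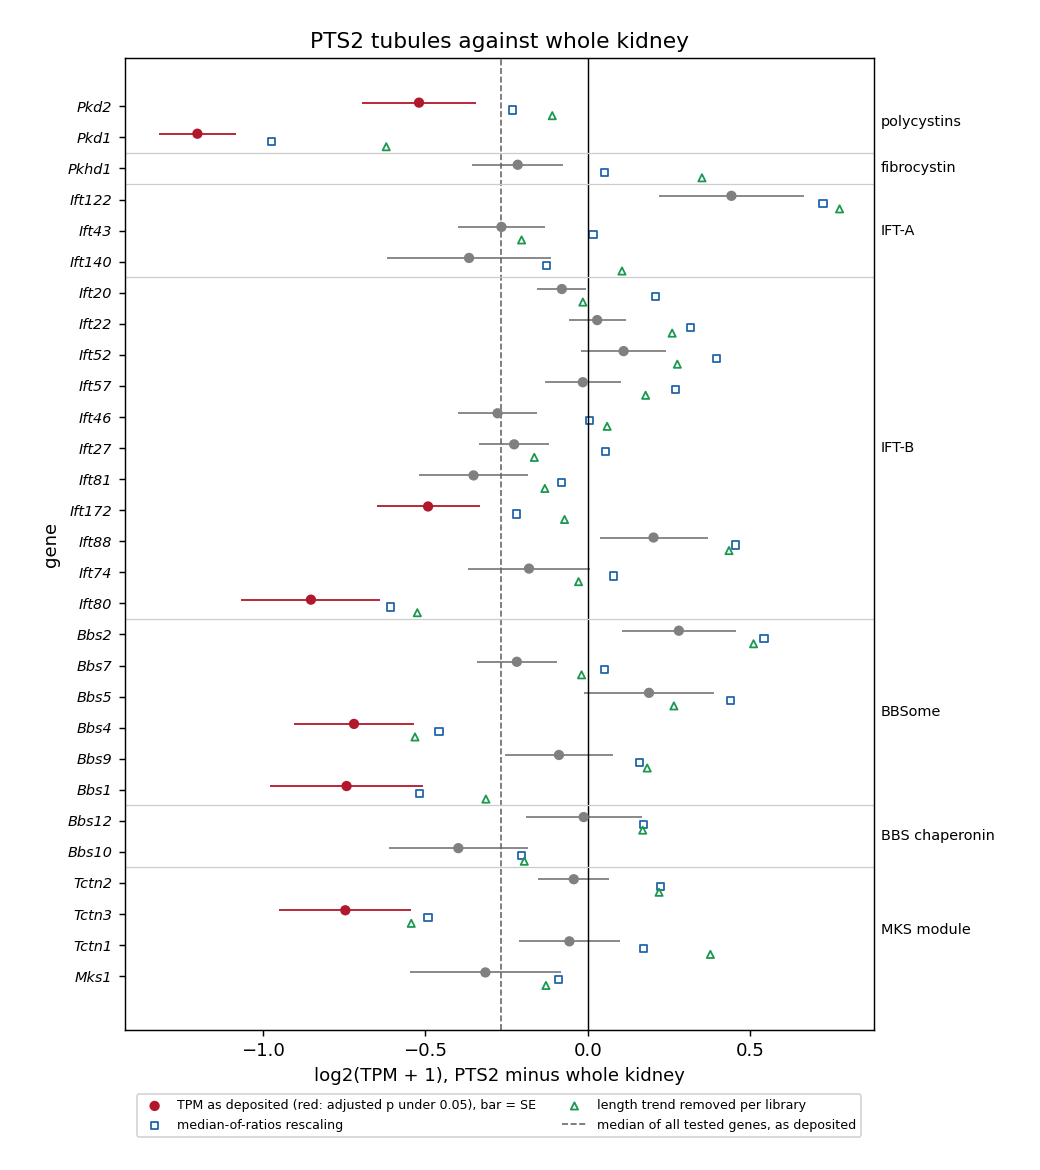
Difference in log2(TPM + 1) between PTS2 and whole kidney for the tested genes reported by name; filled points are the values from TPM as deposited with SE bars (red where the adjusted p is under 0.05), squares the values after median-of-ratios scaling and triangles those after the transcript length trend was removed from each library. Pkd1 lies farthest to the left at -1.202, and the dashed line marks the median of all genes at -0.27.

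Both polycystin transcripts were lower in PTS2. Pkd1 (ENSMUSG00000032855, chr17:24549834-24596508 in GRCm38, plus strand), which encodes the large receptor-like polycystin-1, ranged from 1.2 to 1.84 TPM over the 12 tubule libraries, with a median of 1.59. In whole kidney it was 4.54, 4.38 and 5.51 TPM. Every tubule library lay below every kidney library, and the PTS2 mean of 1.53 ± 0.223 TPM was 31.7% of the kidney mean of 4.81 ± 0.612. The log2 difference was -1.202 ± 0.12 (SE; adjusted p = 2.8e-07, limma), or -0.93 relative to the median of all genes. It was the lowest ratio to whole kidney among the tested genes and remained called under every alternative setting that tested it (a minimum mean of 10 TPM left it out). Exons of Pkd1 share 693 bases (3.98% of its exonic bases) with Tsc2 on the opposite strand, and reads from the 2 genes cannot be told apart there without strand.

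Pkd2 (ENSMUSG00000034462, chr5:104459450-104505819, plus strand), which encodes the cation channel polycystin-2, was far more abundant: 28.3 to 63.9 TPM in PTS2 with a median of 46.9, and 65.4, 66.0 and 69.5 TPM in whole kidney. The groups did not overlap, but the highest tubule library (m2 replicate 1) came close to the lowest kidney library. The PTS2 mean was 70.7% of the kidney mean, with a log2 difference of -0.52 ± 0.17 (adjusted p = 0.0201, limma). The call was lost with median-of-ratios scaling (-0.23, adjusted p = 0.197), with the length trend removed (-0.11, adjusted p = 0.462) and when any 1 kidney library was left out (adjusted p = 0.0539 to 0.0748). In PTS2 the mean TPM of Pkd2 was 47.4 ± 9.87, beside 1.53 for Pkd1.

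Pkhd1 (ENSMUSG00000043760, chr1:20057779-20618064, minus strand), the fibrocystin gene, was at 8.06 to 12.8 TPM in PTS2 with a median of 9.78, and at 11.4, 12.5 and 11.1 TPM in whole kidney. The ranges overlapped and the log2 difference of -0.22 ± 0.14 did not pass (adjusted p = 0.209, limma). Fibrocystin and polycystin-2 transcripts were thus both detected in all 12 single tubules. By mean level in PTS2, Pkd2 ranked 4 and Pkhd1 ranked 16 among the 33 rows, while Pkd1 ranked 30.

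**Figure D3:**
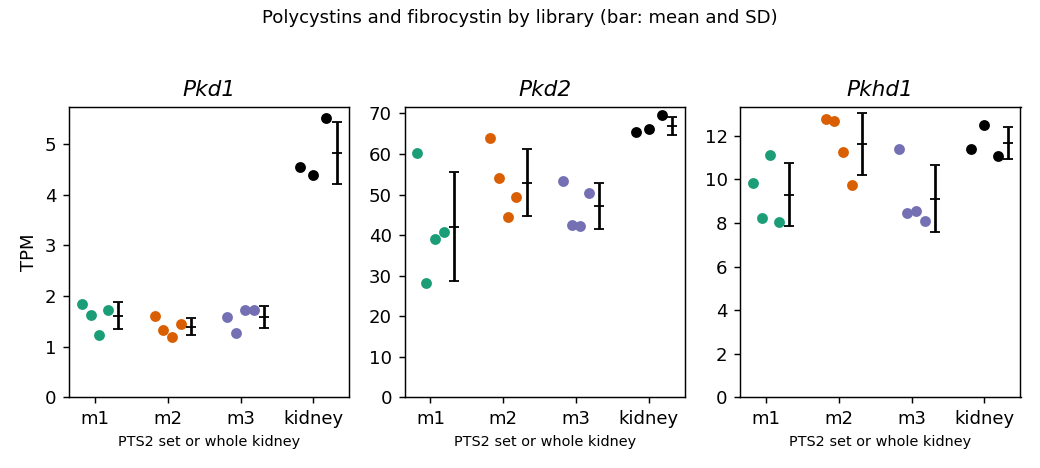
TPM of Pkd1, Pkd2 and Pkhd1 in each library, by PTS2 set (4 libraries each) and whole kidney (3 libraries), with bars for the mean and SD. Pkd1 is below 1.85 TPM in every tubule library and above 4.3 TPM in every kidney library, while the tubule and kidney points of Pkhd1 overlap.

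The 11 IFT-B genes were the most abundant group, with a summed level of 294.7 ± 17.7 TPM in the tubules and 315 ± 19.9 TPM in kidney. Of these, 2 were lower and 9 not called. Ift20, whose product also works at the Golgi in sorting membrane cargo to the cilium, was the highest member in PTS2 and second to Pkd2 in whole kidney, at 55.6 to 67.8 TPM with a median of 60.7 in PTS2 and at 58.4, 66.5 and 68.8 TPM in whole kidney. It was also the steadiest, with a coefficient of variation of 7.0% over the 12 tubules. Ift22 (48.2 ± 4.47 against 47.2 ± 2.99 TPM), Ift52 (47.5 ± 7.09 against 43.6 ± 4.05) and Ift57 (44.2 ± 6.09 against 44.4 ± 2.96) followed, with ranges that overlapped those of whole kidney. Ift46 was at 30.2 ± 3.80 TPM against 36.8 ± 5.86, and Ift27, a small GTPase that links the BBSome to IFT-B, at 21.7 ± 2.47 against 25.5 ± 2.49.

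Ift80 was the IFT-B gene that differed most. It ranged from 1.17 to 4.27 TPM in PTS2 with a median of 3.71, and was 6.70, 7.37 and 6.49 TPM in whole kidney, with no overlap. The PTS2 mean of 3.45 ± 0.896 TPM was 50.4% of the kidney mean, a log2 difference of -0.85 ± 0.21 (adjusted p = 0.0034, limma). Ift172, which encodes the largest IFT-B subunit, was at 7.30 to 13.7 TPM with a median of 10.8 in PTS2 and at 12.6, 18.1 and 15.1 TPM in whole kidney, and the ranges overlapped. Its log2 difference of -0.49 ± 0.16 passed (adjusted p = 0.0161) but did not with median-of-ratios scaling (adjusted p = 0.181), with the length trend removed (0.658), or without kidney replicate 2 (0.122) or 3 (0.0534).

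Ift81 and Ift74, whose products bind each other and carry tubulin, were not called. Ift81 did not overlap between groups, with 6.37 to 14.3 TPM in tubules and 14.4 to 16.3 TPM in kidney (log2 difference -0.35, adjusted p = 0.0892). It passed as lower without m1 replicate 2 (adjusted p = 0.0292) and with 1 mean per set (0.0397). Ift74 was at 7.84 ± 1.95 TPM against 8.82. Ift88, the subunit whose loss in the mouse gives polycystic kidneys, was at 8.05 ± 1.62 TPM in PTS2 and 6.75 ± 0.516 in whole kidney.

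Of the IFT-A genes 0 of 3 were called, although with 1 mean per set in place of 4 libraries Ift122 passed as higher (adjusted p = 0.0441, limma) and Ift43 (0.0225) and Ift140 (0.0248) as lower. Ift122, a core subunit, was at 20.2 to 53.4 TPM in PTS2 with a median of 43.6, and at 27.1, 32.8 and 26.7 TPM in whole kidney. Its mean was 141% of whole kidney, but the ranges overlapped and the log2 difference of 0.44 ± 0.22 did not pass (adjusted p = 0.107, limma). It passed as higher with median-of-ratios scaling (0.72, adjusted p = 0.0042), with the length trend removed (0.77, adjusted p = 0.00085), with quantile normalization (0.76, adjusted p = 0.0023) and without m1 replicate 2 (0.52, adjusted p = 0.0140). Ift43 was at 23.6 ± 3.50 TPM against 28.3 ± 1.86, and Ift140, mutated in a human skeletal and kidney ciliopathy, at 4.11 ± 1.40 against 5.33 ± 0.0839. Together the 3 genes summed to 68.4 ± 10.2 TPM in the tubules and to 62.5 ± 3.67 TPM in kidney.

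The 6 BBSome genes summed to 44.5 ± 4.66 TPM in the tubules and to 50.3 ± 4.77 TPM in kidney, with 2 lower and 4 not called. Bbs4 was at 3.64 to 7.68 TPM in PTS2 with a median of 6.15, and at 12.9, 11.4 and 7.25 TPM in whole kidney. Kidney replicate 3 fell below the highest tubule library. The log2 difference was -0.72 ± 0.19 (adjusted p = 0.0042, limma). Bbs1, whose product binds the small GTPase that recruits the BBSome to membranes, was at 0.80 to 4.05 TPM with a median of 2.22 against 3.91, 4.82 and 4.25 TPM. The ranges overlapped, and its log2 difference of -0.74 ± 0.24 (adjusted p = 0.0152) lost the call with median-of-ratios scaling (0.0602), with the length trend removed (0.181) and without kidney replicate 2 (0.0721).

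The other BBSome genes were not called. Bbs2, the highest of the group in PTS2, was at 8.88 to 16.3 TPM in PTS2 with a median of 11.5, and at 8.68, 8.31 and 10.9 TPM in whole kidney. It passed as higher with median-of-ratios scaling (0.54, adjusted p = 0.0200, limma), with the length trend removed (0.51, adjusted p = 0.0382) and with quantile normalization (0.89, adjusted p = 0.00056). Bbs7 was at 11.2 ± 1.24 TPM against 13.4 ± 3.10, Bbs5 at 7.47 ± 1.79 against 6.48 ± 2.04, and Bbs9 at 5.92 ± 1.31 against 6.33 ± 1.31. The chaperonin-like genes Bbs10 and Bbs12, which help fold and assemble the BBSome, were scarce and not called. Bbs12 was at 0.98 to 2.53 TPM with a median of 1.72 in PTS2 and at 1.70, 2.61 and 1.35 TPM in whole kidney, and Bbs10 was at 1.41 ± 0.622 against 2.13 ± 0.567.

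At the transition zone, 1 of 4 MKS module genes was lower. Tctn3, a tectonic protein of the ciliary gate, ranged from 2.36 to 7.01 TPM in PTS2 with a median of 4.76, and was 8.59, 7.86 and 8.38 TPM in whole kidney, with no overlap. The log2 difference was -0.75 ± 0.20 (adjusted p = 0.0058, limma). Its relatives Tctn1 (3.74 ± 0.830 against 3.87 ± 0.374 TPM) and Tctn2 were not called. Tctn2, the highest of the module, was at 9.65 to 13.6 TPM with a median of 11.4 in PTS2 and at 11.2, 12.6 and 11.7 TPM in whole kidney. Of the exonic bases of Tctn1, 1574 (19.0%) overlap Hvcn1 on the opposite strand, so its level is uncertain.

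Mks1 was at 3.16 ± 0.944 TPM in PTS2 and 4.16 ± 1.31 in whole kidney. Nphp4, of the NPHP module, was below 0.4 TPM in every tubule.

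Of the 7 genes called lower, Pkd1, Ift80, Bbs4 and Tctn3 remained so under median-of-ratios scaling, with the length trend removed and on leaving out each library in turn. With quantile normalization, which forces all libraries to one distribution, only Pkd1 (-0.40, adjusted p = 0.0073) and Pkd2 (-0.35, adjusted p = 0.0455) of these 31 genes did. In all, 5 of 31 genes (Pkd1, Pkd2, Ift80, Ift81 and Tctn3) had every tubule library below every kidney library (16.1%), beside 32% of all genes tested, and 0 had every tubule library above. In either direction 37.8% of all genes tested did not overlap. The limit of the filter given above holds for these shares of all genes too.

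Other genes of the cilium and of cystic disease, outside the naming rule, were read from a list of 77, of which 61 could be tested. In PTS2, 22 were lower, 2 higher and 37 not called, with a median log2 difference of -0.24, and 28 had an unadjusted p under 0.05. The shares called were 36.1% lower and 3.28% higher, beside 41.5% and 9.68% of all genes tested. The limit of the filter given above holds for the shares called lower here. The split changed with scaling, to 10 lower and 9 higher with median-of-ratios scaling, 5 and 27 with quantile normalization and 7 and 11 with the length trend removed. By role, with TPM as deposited, 4 of 7 motor genes, 4 of 11 further transition zone genes, 3 of 10 further IFT genes, 3 of 6 ciliary membrane genes, 3 of 12 further cystic disease genes, 2 of 8 further Bardet-Biedl genes, 2 of 4 RFX genes and 1 of 3 inversin compartment genes were lower. The 10 motile cilium genes were all under the filter, at means of 0.0025 to 0.335 TPM in PTS2.

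The largest falls were in Adcy6, which encodes the adenylyl cyclase that acts downstream of vasopressin (0.990 ± 0.266 against 5.24 ± 0.247 TPM, log2 difference -1.66 ± 0.14), Ahi1, a Joubert syndrome gene (0.983 ± 0.419 against 3.69 ± 0.558, -1.27 ± 0.22), and Kifap3, the adaptor subunit of the kinesin that drives IFT-B (4.33 ± 0.527 against 9.52 ± 1.45, -0.98 ± 0.12). Rfx3, which encodes a factor of the X-box family, fell by 0.94 ± 0.16, from 2.48 ± 1.11 TPM in whole kidney to 0.763 ± 0.199. Its limma call was lost with the length trend removed (adjusted p = 0.0614) and with quantile normalization (0.576). Adcy6, Ahi1 and Rfx3 averaged under 1 TPM in PTS2 and passed the filter only through their whole kidney levels. A gene admitted in this way must have a PTS2 mean below its whole kidney mean. Adjusted p-values were 0.00017 or less for Adcy6, Ahi1 and Kifap3 in limma, and the Ahi1 call was lost with quantile normalization (-0.45, adjusted p = 0.132). Dync2li1, a light intermediate chain of the dynein of the return to the base, was also lower (24.4 ± 3.62 against 41.9 ± 2.44 TPM, adjusted p = 9.0e-05, limma). So was Arl3, a GTPase that releases lipid-anchored cargo into the cilium (41.3 ± 3.49 against 68.7 ± 3.47 TPM, adjusted p = 1.5e-06, limma).

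The 2 higher genes were Dzip1l, mutated in a recessive polycystic disease (13.6 ± 2.78 against 8.80 ± 0.273 TPM, 0.55 ± 0.17, adjusted p = 0.0104), and Cluap1, an IFT-B subunit (23.8 ± 2.52 against 18.9 ± 1.40 TPM, 0.31 ± 0.10, adjusted p = 0.0150). The Cluap1 call was lost without kidney replicate 1 (0.0782) or 3 (0.0628). Those of Adcy6, Arl3, Dync2li1, Kifap3 and Dzip1l were lost under no setting that tested them. A minimum mean of 10 TPM left out Adcy6 and Kifap3.

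The second comparison asked whether the 3 PTS2 sets differed, by an F test in limma over the 12 tubule libraries. Of the 31 tested genes 0 passed, beside 3.02% of the 11300 genes tested, and 0 passed under every alternative setting. At an unadjusted p under 0.05 the count was 3. Bbs9 was at 4.85 ± 0.296 TPM in m1, 5.73 ± 0.772 in m2 and 7.17 ± 1.42 in m3 (adjusted p = 0.196). Ift57 was at 38.8 ± 5.95, 48.9 ± 3.67 and 45.0 ± 4.26 TPM (adjusted p = 0.229), and Ift122 at 33.0 ± 11.5, 40.9 ± 8.39 and 48.4 ± 5.79 TPM (adjusted p = 0.295). For Pkd2 the set means were 42.1 ± 13.4, 52.9 ± 8.30 and 47.1 ± 5.63 TPM.

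Pkhd1 had set means of 9.29 ± 1.44 TPM in m1, 11.6 ± 1.42 in m2 and 9.11 ± 1.52 in m3 (adjusted p = 0.350). Among the other cilium and cystic genes, 2 of 57 tested differed among sets, and 8 had an unadjusted p under 0.05. Glis2, 1 of the 2 and a nephronophthisis gene that encodes a zinc finger factor, was at 33.4 ± 0.929, 25.7 ± 1.81 and 34.3 ± 3.69 TPM (adjusted p = 0.0367). That call was lost under 4 other settings and on leaving out any 1 of 10 of the 12 libraries (adjusted p up to 0.127).

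Within the sets, libraries differed in the balance of long and short transcripts. This was measured, without the members, as the median log2 deviation of 822 genes with a longest transcript of at least 4000 bases minus that of 490 genes of at most 1000 bases. It ran from -0.40 in m1 replicate 2 to 0.37 in m3 replicate 4, and was 0.19, 0.29 and 0.21 in whole kidney. Each set held both negative and positive values. Of the 22 members whose longest transcript has at least 2500 bases, 10 had their lowest PTS2 level in m1 replicate 2, with a median log2 deviation of -0.38 there. Of the 9 shorter members, 2 were lowest and 3 highest there, with a median of -0.04. In the same library the 822 long genes outside the members had a median deviation of -0.27 and the 490 short ones 0.13. No matching count of lowest libraries over all genes is given, so these counts are a description only.

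The members that were lowest in m1 replicate 2 included Ift80 at 1.17 TPM, Pkd2 at 28.3 TPM and Ift122 at 20.2 TPM. Pkd1, the member with the longest transcript (14164 bases, with a median of 711 over its transcripts), was not among them, with 1.63 TPM in that library. With the length trend removed from every library, Pkd1 was still lower than whole kidney (-0.62, adjusted p = 0.00017), as were Ift80 (-0.52), Bbs4 (-0.53) and Tctn3 (-0.54), and 4 genes (Ift122, Ift88, Bbs2 and Ift52) were called higher, beside 23.8% of all genes lower and 20.8% higher.

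**Figure D4:**
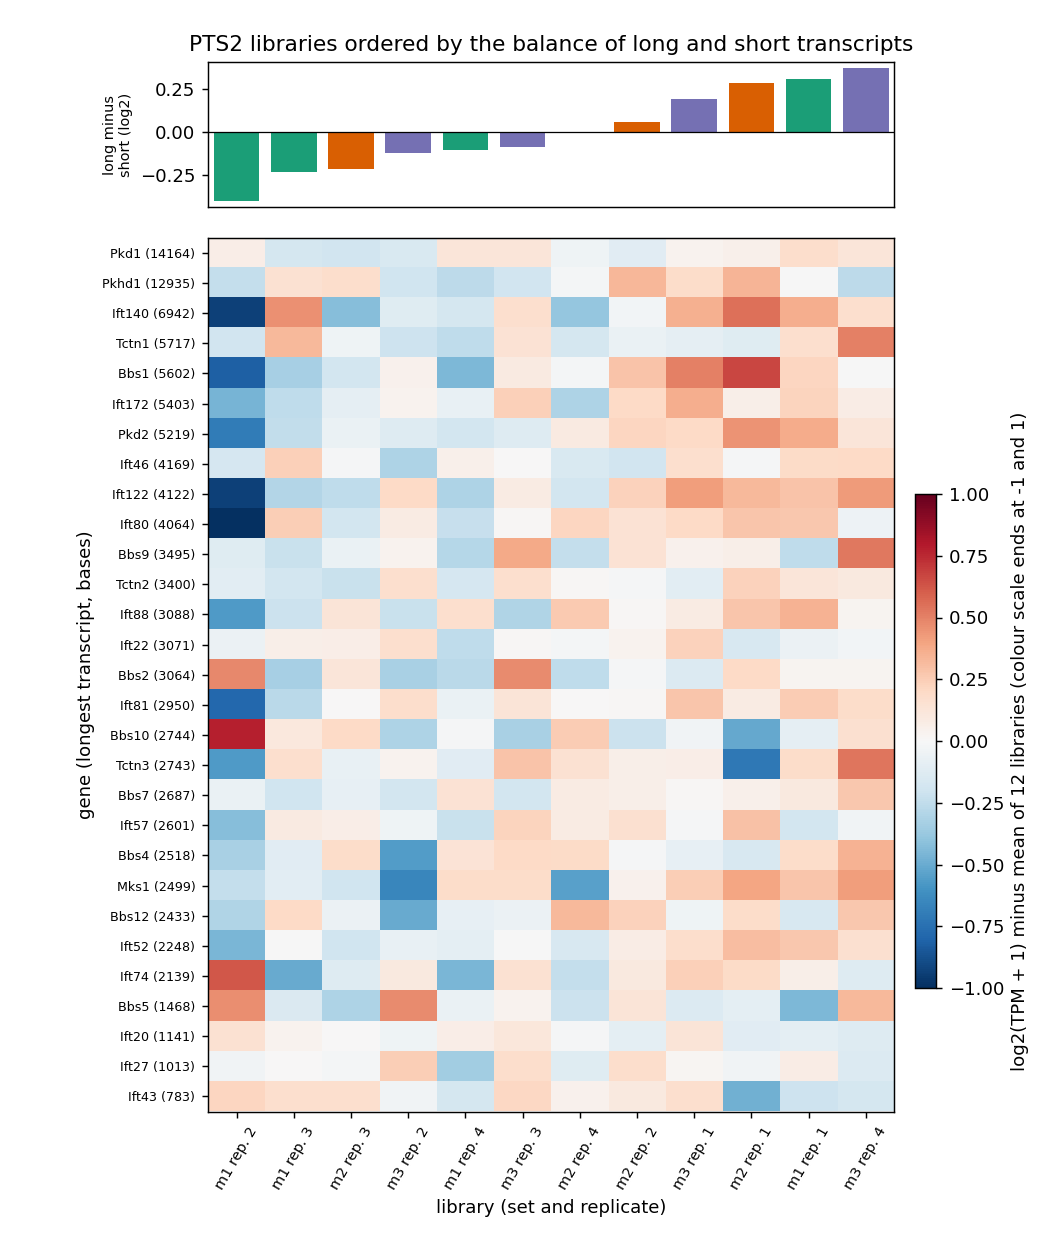
Upper panel: long minus short transcript balance (log2) of each PTS2 library, coloured by set and in rising order. Lower panel: log2(TPM + 1) of each gene reported by name minus its mean over the 12 libraries, genes ordered by longest transcript (bases in brackets), with a colour scale ending at -1 and 1; the column of m1 replicate 2, at the left, is blue for many genes in the upper rows.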

How the data were processed

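RNA was extracted with a Zymo kit and cDNA made with the SMART-Seq V4 kit, per the labels' protocols. STAR 2.5.1b, RSEM 1.2.31 and build GRCm38.p5 are named in the submitters' processing notes; their settings and the annotation release are not given in the sources used here. The authors deposited 1 table of TPM values per gene and library; its 4 columns of means and errors were left aside. TPM keeps no depth, so no count test or interval was possible. Coordinates, overlaps and transcript lengths came from GENCODE M21 (GRCm38), matched for 46488 gene IDs, and promoters from RefSeq (GRCm38.p6).

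Differences were tested with limma 3.58.1 (R 4.3.3; lmFit and eBayes with trend) on log2(TPM + 1) for genes averaging 1 TPM or more in the fitted libraries, with Benjamini-Hochberg adjustment over all genes and a threshold of 0.05. PTS2 against whole kidney used all 15 libraries and let those of a set correlate (duplicateCorrelation, 0.0669); sets were compared by an F test over 12 libraries. On simulated data with 200 changed genes, a log2 change of 1 was recovered for 179 genes in the first comparison and 159 in the second. False calls numbered 18 and 13. A change of 2 was recovered for 194 and 190 genes, with 13 and 8 false calls. In the real data 51.2% of genes were called in the first comparison, so these rates need not hold there. Alternatives were a pseudocount of 0.1, other filters, median-of-ratios and quantile scaling, a replicate block, no or averaged sets, and each library left out; removal of a transcript length trend was added after seeing the data. Members and lists were chosen with earlier results of these data known. Values by library are given for the members called with no overlap between groups, the highest member of each role group and Pkd1, Pkd2 and Pkhd1; of the other genes, those with the largest called differences, up to 4 in each direction and comparison, and examples of a group are named. Some genes are counted in the totals and not reported here by name.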

Additional observations from a re-analysis of the deposited data

Results flagged for a closer look

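Within each set of 4 tubule libraries, the highest or lowest value was compared with its nearest neighbour by Dixon's ratio. Of 162 such tests, over the genes reported by name, 7 passed, beside 8.1 that chance gives, and no explanation was tested. In m1, replicate 2 had Bbs10 at 3.03 TPM (the other libraries of the set 1.21 to 1.52), and replicate 1 had Nphp4 at 0.2 TPM (0 to 0.01). In m2, replicate 1 had Ift81 at 12.44 TPM (11.72 to 11.76). In m3, replicate 1 had Bbs1 at 3.51 TPM (2.16 to 2.38) and Pkhd1 at 11.37 TPM (8.08 to 8.53), replicate 2 had Rfx3 at 1.07 TPM (0.59 to 0.61), and replicate 3, the library with thick ascending limb markers, had Ift57 at 51.39 TPM (42.53 to 43.56).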

How the results depend on the processing

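With no filter on low values, 8325 genes were lower in PTS2 and 196 differed among sets, beside 4996 and 341 as reported. With a minimum mean of 10 TPM the lower counts were 2130 genes, 2 members and 8 other cilium and cystic genes. With median-of-ratios scaling, 2860 genes were lower and 2828 higher (1165 as reported); members gave 4 and 5, other cilium and cystic genes 10 and 9. With quantile normalization the counts were 2266 and 4096, 2 and 13, and 5 and 27. With the length trend removed they were 2858 and 2497, 4 and 4, and 7 and 11, and 548 genes differed among sets. The share of calls that were higher was 18.9% as reported, 31.6% with a minimum of 10 TPM, 49.7% with median-of-ratios scaling, 64.4% with quantile normalization and 46.6% with the length trend removed; the median log2 difference of all genes was -0.27 as reported, 0.00 with median-of-ratios scaling, 0.15 with quantile normalization and -0.02 with the length trend removed. With one mean per set 10 members were lower, Ift140, Ift43 and Ift81 added (adjusted p = 0.0248, 0.0225 and 0.0397), and 1, Ift122, higher (0.0441). Among the other cilium and cystic genes 1 differed among sets with no filter, either scaling or the length trend removed. Leaving out single libraries gave 3752 to 5397 genes lower, 807 to 1315 higher and 197 to 563 among sets; for members 4 to 9 lower and 0 to 1 higher; for other cilium and cystic genes 16 to 24 lower, 1 to 3 higher and 1 to 2 among sets.

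With the replicate block, 888 genes differed among sets, 5034 were lower and 1258 higher; 8 members were lower, Bbs7 added (adjusted p = 0.0363), and Ift57 turned to 0.0042. Same-numbered tubule libraries correlated at 0.143 on average (0.0254 to 0.273), and 7 of 12 such pairs exceeded 0.1. Different-numbered pairs correlated at -0.0481 on average (-0.238 to 0.148), and 2 of 36 exceeded 0.1. Of the 12 libraries, 9 correlated best with their own number. The main tests did not include the replicate number, and what it stands for was not tested.

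These log2 differences between PTS2 and whole kidney turned positive. With median-of-ratios scaling: Bbs12 0.17, Bbs7 0.051, Bbs9 0.16, Glis2 0.24, Ift20 0.21, Ift27 0.054, Ift43 0.016, Ift46 0.0060, Ift57 0.27, Ift74 0.079, Pkhd1 0.051, Tctn1 0.17 and Tctn2 0.22. With the length trend removed: Bbs12 0.17, Bbs9 0.18, Glis2 0.24, Ift140 0.11, Ift46 0.059, Ift57 0.18, Pkhd1 0.35, Tctn1 0.38 and Tctn2 0.22. With quantile normalization: Arl13b 0.49, Bbs1 0.056, Bbs10 0.44, Bbs12 0.77, Bbs7 0.32, Bbs9 0.62, Glis2 0.26, Ift140 0.39, Ift172 0.0040, Ift20 0.078, Ift27 0.12, Ift43 0.056, Ift46 0.0058, Ift57 0.21, Ift74 0.46, Ift81 0.14, Invs 0.083, Kif3b 0.11, Mks1 0.48, Pkhd1 0.36, Tctn1 0.76, Tctn2 0.52 and Wdr19 0.15. Leaving out single libraries took these across 0: Bbs12 (-0.15 to 0.16), Bbs5 (-0.036 to 0.37), Bbs9 (-0.24 to 0.011), Ift22 (-0.021 to 0.067), Ift57 (-0.071 to 0.021) and Tctn2 (-0.080 to 0.00047). The cause was not tested.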
